A study of Mus musculus with 61 samples.

Results

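Bulk RNA-seq of wild-type stembryos at 96 h after aggregation was compared, across the genome, with that at 84 h, the preceding stage of a time course sampled at intervals of 12 h around this age. Both stages were represented by 2 libraries, so that 4 of the 61 libraries of the series carry the comparison, and the genes described are the 12214 of 55052 listed genes whose mean reached 1 FPKM (mapped fragments scaled by transcript length and library size, the deposited unit) at either stage. Stembryos (gastruloids) are balls of mouse embryonic stem (mES) cells grown in suspension which, after a pulse of the Wnt agonist Chiron, elongate and resemble the posterior body axis. The 84 h and 96 h groups had the same wild-type (wt) genotype and the same treatment, with the pulse ended at 72 h and no later agent stated, and each library was made from a pool of stembryos collected without selection for shape. Another 4 wild-type libraries at 96 h, made outside the time course, had the same labels and are given beside the results. The labels do not say whether libraries of a stage came from separate cultures. P-values rest on the spread between libraries within groups over all 61 libraries of the series, which may be technical. Because whole stembryos were measured, fewer cells of a type and less RNA per cell cannot be told apart.

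In the gastrulating embryo, epiblast cells enter the primitive streak under Wnt and Nodal signals, lose their epithelial contacts and emerge as mesoderm. Paraxial mesoderm is laid down as presomitic mesoderm, where Notch, Wnt and FGF signals oscillate or form gradients, and is cut into somites at its anterior end, while a posterior pool of progenitors under Wnt and FGF signals keeps feeding the axis. T-box factors such as T (Brachyury) act in the streak, Tbx6 and Msgn1 in the presomitic mesoderm, and Mesp2 and Ripply2 at the forming somite boundary.

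The 2 libraries at 96 h stood further apart than those at 72 h, 84 h or 108 h. The SD over genes of the log2 difference between replicates was 0.967 at 96 h and 0.762 at 84 h, and 323 of the 12214 genes differed by a log2 value of 2 or more between the 96 h libraries, against 145 between the 84 h libraries. Replicate 2 at 96 h was lower in posterior genes, for example Cdx4 (46.8 and 0.954 FPKM in replicates 1 and 2), Hoxc8 (25.2 and 0.572) and Hoxb9 (115 and 5.53). It was higher in the immediate early genes Fos (6.47 and 53.6), Egr1 (10.6 and 48.4) and Fosb (1.10 and 12.7), and in Myl7, a cardiac myosin light chain (0.519 and 18.0). The part of these differences in the results was not tested. Counts are therefore given with all libraries and again without this library, where 96 h rests on 1 library that is assumed to vary like the other groups. Where leaving out another of the 4 libraries moved a count by more than 1.5 times, that count is given too. Depth, inferred from the deposited confidence bounds, was 20120000 and 22990000 fragments at 84 h, 21740000 and 20670000 at 96 h, and 20890000 to 26150000 in the libraries outside the time course.

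Of the 12214 genes, 1258 rose (10.3%) and 2025 fell (16.6%) from 84 h to 96 h, by limma on log2(FPKM + 0.1) with a Benjamini-Hochberg adjusted p below 0.05. These shares are the background for every count below, and over all 17098 genes fitted they were 8.16% and 12.5%. Most changes were moderate: 433 of the rises and 798 of the falls were of 2-fold or more on this scale, and the median log2 change was 0.66 among the rises and -0.80 among the falls. The 96 h libraries were both above both 84 h libraries in 1231 of the 1258 rises, and both below in 1981 of the 2025 falls. Without replicate 2 of 96 h, 915 genes rose (7.49%) and 1406 fell (11.5%), of which 756 and 1244 were among the calls made with all libraries. The calls draw on the spread over all 61 libraries, and with only the 4 libraries compared in the fit 145 genes rose and 298 fell of all genes fitted. Of the 12214 genes, 507 had a mean of 1 FPKM or more at 96 h alone and 663 at 84 h alone. Such genes had to be higher at that stage, hence counts and medians over the genes of a list that reached 1 FPKM are descriptions. The median log2 change over the 12214 genes was -0.06, and 38.3% of the calls were rises. After scaling by the upper quartile or by median ratios, 45.5% and 46.5% of the calls were rises, with 932 and 1670 rises and 1115 and 1922 falls.

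**Figure D1:**
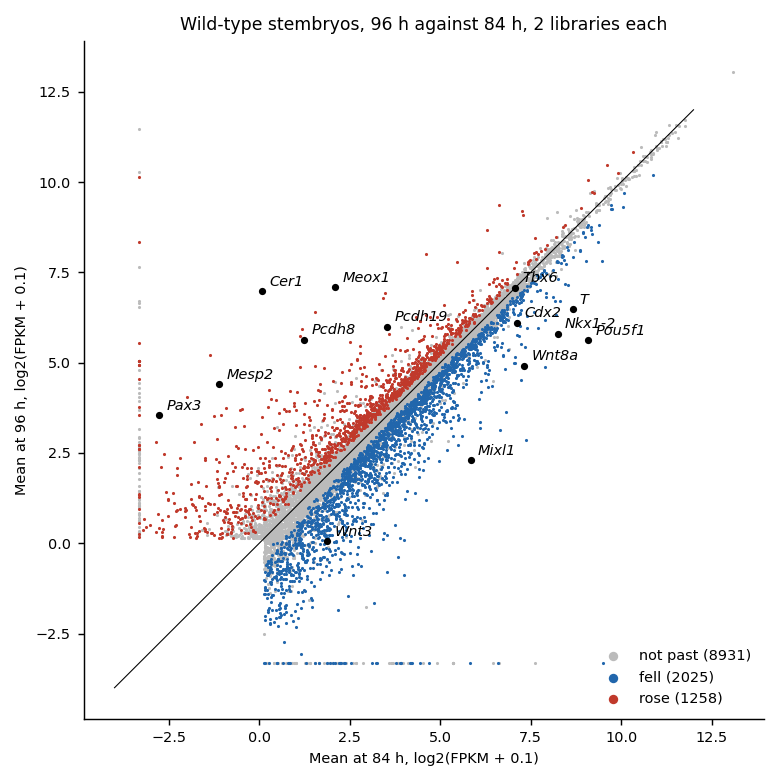
Mean level of each of the 12214 genes at 96 h (vertical axis) against 84 h (horizontal axis), both as log2(FPKM + 0.1) of the mean of 2 libraries. Red and blue points are genes that rose (1258) or fell (2025) at an adjusted p below 0.05, grey points did not pass, and points on the left and lower edges were listed at 0 at that stage. The somite genes Mesp2, Meox1 and Pax3 lie above the diagonal, while Mixl1, Nkx1-2 and T lie below it.

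In 8 of 13 genes of the primitive streak both 96 h libraries were below both 84 h libraries, as they were in 4206 of the 12214 genes. All 13 genes reached 1 FPKM at either stage, and 4 fell, 1 rose and 8 did not pass. The median log2 change was -1.63 against -0.06 over all 12214 genes. Of the 13, Wnt3 and Gsc reached 1 FPKM only at 84 h, so that their direction was fixed by that filter. Mixl1, a homeodomain factor of the streak and its mesendoderm, stood at 56.7 and 58.3 FPKM at 84 h and 3.66 and 5.94 at 96 h. All 4 values were well apart by stage, and the log2 change was -3.60 ± 0.44 (± SE of the limma contrast, as for all changes given; adjusted p = 1.26e-07). T, the T-box factor Brachyury, fell from 306 and 503 FPKM to 107 and 70.4, without overlap and by a log2 change of -2.17 ± 0.27 (adjusted p = 1.59e-07). Wnt3, the ligand required to form the streak, was at 3.25 and 3.89 FPKM at 84 h and 0.257 and 1.62 at 96 h. Its log2 change of -2.22 ± 0.48 passed the test (adjusted p = 7.66e-04), with both 96 h libraries below both 84 h libraries. Evx1, a homeobox gene of the posterior streak, was at 35.9 and 33.0 FPKM at 84 h and 24.4 and 4.89 at 96 h, so that replicate 1 lay nearer to 84 h and the change of -1.64 ± 0.40 (adjusted p = 0.00248) was -0.50 without replicate 2 (adjusted p = 0.458). The Nodal branch had larger SEs, of 0.701 for Nodal, 0.925 for Tdgf1 and 0.924 for Lefty2. SEs draw on the spread over all 61 libraries. In the 96 h group outside the time course, for example, Lefty2 ran from 1.19 to 21.5 FPKM. Nodal itself was at 7.18 and 12.6 FPKM at 84 h and 1.80 and 4.97 at 96 h, its coreceptor Tdgf1 at 9.54 and 15.6 at 84 h and 1.47 and 7.63 at 96 h, and its antagonist Lefty2 at 17.4 and 21.2 at 84 h and 2.95 and 10.7 at 96 h. In these 3 genes both 96 h libraries were below both 84 h libraries, yet none passed (adjusted p of 0.101, 0.183 and 0.204). Eomes, a T-box factor of the early streak, was at 1.74 and 2.76 FPKM at 84 h and 0.155 and 8.37 at 96 h, with replicate 2 above and replicate 1 below 84 h. Mesp1, a bHLH factor of nascent mesoderm, was the streak gene that rose, from 2.28 and 2.28 FPKM to 14.0 and 15.1 (log2 change 2.62 ± 0.55, adjusted p = 4.61e-04). With replicate 2 of 96 h left out, 4 streak genes fell (Mixl1, Wnt3, T and Eomes) and 1 rose (Mesp1). Calls lost when 1 library was left out were those of Wnt3 (log2 change -1.09 without replicate 1 of 96 h) and Evx1 (-0.50 without replicate 2 of 96 h).

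Early posterior genes, which mark the caudal epiblast and its neuromesodermal progenitors, fell in larger number, but several of these calls rested on 1 library. Of 14 genes, 9 fell, none rose and 5 did not pass, with a median log2 change of -1.20. Without replicate 2 of 96 h, 2 fell (Nkx1-2 and Wnt8a) and 3 rose (Cyp26a1, Gdf11 and Cdx4), and 6 to 11 fell with any 1 of the other 3 libraries left out, with none rising. Nkx1-2, a homeodomain factor of these progenitors, stood at 308 and 300.3 FPKM at 84 h and at 87.9 and 23.8 at 96 h. Both 96 h libraries were far below 84 h, and the log2 change was -2.73 ± 0.40 (adjusted p = 2.47e-06), or -1.79 without replicate 2 (adjusted p = 0.00163). Wnt8a, a Wnt ligand of the posterior epiblast, went from 158 and 163 FPKM to 33.6 and 26.3. Here the 96 h libraries were close to each other, and the change of -2.42 ± 0.31 (adjusted p = 2.91e-07) was -2.25 without replicate 2 (adjusted p = 5.38e-05). Wnt3a, a Wnt ligand needed for posterior growth, was at 78.1 and 71.4 FPKM at 84 h and 41.7 and 10.8 at 96 h. Replicate 2 was the lower of the 96 h libraries, and the log2 change of -1.81 ± 0.37 (adjusted p = 3.15e-04) shrank to -0.84 without it (adjusted p = 0.110). Cdx1 and Cdx2, caudal-type homeodomain factors that act upstream of trunk Hox genes, both fell. Cdx1 went from 391.7 and 350.4 FPKM to 194 and 88.0 and Cdx2 from 156 and 123 to 112 and 25.3, replicate 2 again the lower (log2 changes -1.50 ± 0.30 and -1.38 ± 0.33, adjusted p of 3.34e-04 and 0.00237). Without replicate 2 the changes were -0.93 and -0.31, and neither passed (adjusted p of 0.0603 and 0.570). Sox2, a factor shared by neural and posterior progenitors, was at 26.2 and 25.6 FPKM at 84 h and 18.4 and 5.58 at 96 h, and Sp8, a zinc finger factor downstream of Wnt, at 17.7 and 13.8 at 84 h and 15.9 and 3.59 at 96 h. Sp8 overlapped between the stages, and without replicate 2 its log2 change was 0.02 (adjusted p = 1.00) in place of -1.03 ± 0.31. Cdx4, the third caudal factor, was at 6.70 and 5.85 FPKM at 84 h and 46.8 and 0.954 at 96 h, with 84 h between the 96 h libraries (adjusted p = 1.00). The threshold was missed with 1 library left out for Sox2 (largest adjusted p 0.663, without replicate 2 of 96 h) and Sp8 (adjusted p 0.151, without replicate 1 of 84 h).

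In the 4 other wild-type libraries at 96 h, T was at 76.8, 87.5, 122 and 65.3 FPKM (replicates 1 to 4), Mixl1 at 2.73, 2.37, 5.87 and 1.81, Nkx1-2 at 41.5, 45.7, 54.9 and 50.4 and Wnt8a at 26.5, 29.3, 23.1 and 30.5. All 16 values were below both 84 h libraries of the time course. Wnt3a was at 21.4, 23.9, 26.4 and 21.5 FPKM, Cdx2 at 59.5, 65.2, 76.1 and 60.1 and Cdx4 at 13.9, 17.3, 27.8 and 17.2 in the same libraries, and these values lay between those of replicates 1 and 2 of the time course at 96 h. Replicates 1 to 3 of these libraries differed from the time course and from replicate 4 in mitochondrial mRNAs and in the number of genes recovered.

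The promoters of genes that moved in opposite directions are printed to show the sequence next to the start of genes with the largest changes. They belong to the 2 presomitic mesoderm genes with the largest rise, Pcdh8 and Pcdh19, and to 2 of the streak and early posterior genes with the largest falls, Nkx1-2 and Wnt3 (Mixl1 and Wnt8a, also among them, are not shown). Each is the stretch of 250 bases before the RefSeq start, 5′ to 3′ in the direction of the gene, in build GRCm38.p6. They were searched on both strands for the T-box motif AGGTGT, the TCF/LEF core CTTTGA, which binds the nuclear effectors of Wnt, and, chosen after the sequences were seen, the TATA box TATAAA and the CCAAT box CCAAT. Capitals mark the matches.
Pcdh8, chr14:79771313-79771562, minus strand: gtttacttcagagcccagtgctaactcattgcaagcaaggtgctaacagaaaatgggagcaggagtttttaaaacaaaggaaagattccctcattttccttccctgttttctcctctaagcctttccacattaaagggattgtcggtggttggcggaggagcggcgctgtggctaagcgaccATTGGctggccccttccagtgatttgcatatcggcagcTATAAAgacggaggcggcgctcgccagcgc
Pcdh19, chrX:133688994-133689243, minus strand: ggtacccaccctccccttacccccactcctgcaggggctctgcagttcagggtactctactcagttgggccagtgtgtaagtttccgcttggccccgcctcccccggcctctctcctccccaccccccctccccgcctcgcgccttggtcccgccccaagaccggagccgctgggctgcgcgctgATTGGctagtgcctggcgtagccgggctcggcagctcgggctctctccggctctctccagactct
Nkx1-2, chr7:132599638-132599887, minus strand: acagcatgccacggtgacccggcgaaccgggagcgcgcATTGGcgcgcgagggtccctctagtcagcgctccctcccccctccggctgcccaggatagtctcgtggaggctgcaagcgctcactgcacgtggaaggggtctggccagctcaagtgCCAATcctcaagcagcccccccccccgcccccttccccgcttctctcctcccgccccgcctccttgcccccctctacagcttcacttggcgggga
Wnt3, chr11:103773925-103774174, plus strand: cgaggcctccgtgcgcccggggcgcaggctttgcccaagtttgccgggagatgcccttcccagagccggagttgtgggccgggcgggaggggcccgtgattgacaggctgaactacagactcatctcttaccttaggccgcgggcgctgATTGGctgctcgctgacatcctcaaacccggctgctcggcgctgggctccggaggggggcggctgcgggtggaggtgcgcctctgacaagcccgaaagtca
None of the 4 windows held AGGTGT or CTTTGA, which says only that these letters are not in these windows. Pcdh8 held 1 TATAAA, and CCAAT (or its complement ATTGG) was found once each in Pcdh8, Pcdh19 and Wnt3 and at 2 places in Nkx1-2. Over all 32851 promoter windows of this length, 11.8% held AGGTGT, 13.8% CTTTGA, 12.4% TATAAA and 33.8% CCAAT. Among windows of genes that rose, fell or did not pass, AGGTGT was found in 9.45%, 10.1% and 8.86%, and CTTTGA in 10.2% of each.

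Presomitic mesoderm genes did not move as a block. Of 11 genes, 5 rose, 2 fell and 4 did not pass, with a median log2 change of 0.14. Without replicate 2 of 96 h the same 5 rose and 0 fell, without replicate 1 of 96 h 4 rose and 2 fell, and with either 84 h library left out 5 rose and 1 fell. Pcdh8, the paraxial protocadherin that helps to separate forming somites, stood at 2.62 and 1.89 FPKM at 84 h and 37.8 and 61.1 at 96 h. This rise of 4.37 ± 0.55 on the log2 scale (adjusted p = 1.97e-07) was the largest of the list, with no overlap between the stages. Pcdh19, another protocadherin, went from 13.5 and 9.39 FPKM to 64.9 and 62.3, with close replicates at 96 h (log2 change 2.49 ± 0.21, adjusted p = 5.78e-11). The other 3 rises were Notch genes. Lfng, the glycosyltransferase that modulates Notch in the clock, was at 22.3 and 20.9 FPKM at 84 h and 60.9 and 80.6 at 96 h, and Dll1, the main Notch ligand of this tissue, at 77.9 and 78.3 at 84 h and 239 and 156 at 96 h. Nrarp, a feedback inhibitor of Notch, rose from 20.0 and 21.4 FPKM to 77.5 and 46.8. Log2 changes were 1.70 ± 0.27, 1.31 ± 0.21 and 1.54 ± 0.39, with adjusted p of 1.18e-05, 1.36e-05 and 0.00325. Msgn1, the bHLH factor of early, posterior presomitic mesoderm, moved the other way, from 277 and 311 FPKM to 109 and 51.9. Neither 96 h library reached the 84 h level (log2 change -1.96 ± 0.51, adjusted p = 0.00435), and without replicate 2 the change was -1.43 (adjusted p = 0.124). Dkk1, a secreted Wnt antagonist, fell from 10.5 and 9.86 FPKM to 3.38 and 4.75 (adjusted p = 0.0305, or 0.0516 without replicate 2). Tbx6, which specifies paraxial mesoderm, was at 129 and 139 FPKM at 84 h and 159 and 110.1 at 96 h, with 84 h between the 96 h libraries (log2 change -0.01 ± 0.34, adjusted p = 1.00). Hes7, the oscillating repressor of the clock, was at 34.2 and 32.3 FPKM at 84 h and 53.3 and 17.5 at 96 h, and Rspo3, a Wnt agonist, at 57.1 and 52.97 at 84 h and 60.8 and 49.8 at 96 h. The values of these 3 genes overlapped between the stages. Some changes did not pass with 1 library left out, namely those of Nrarp (largest adjusted p 0.0761, without replicate 1 of 96 h) and Dkk1 (largest adjusted p 0.191, without replicate 1 of 96 h).

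Somite genes rose. Of 14 listed genes, 11 reached 1 FPKM at either stage and these 11 rose. Both 96 h libraries were above both 84 h libraries in each of the 11, and in 2928 of the 12214 genes. Since 6 of the 11 reached 1 FPKM only at 96 h and had to be higher there, the count is no support by itself. The remaining 3, Uncx, Pax1 and Foxd1, were below 1 FPKM at both stages. Without replicate 2 of 96 h, 9 of the 11 rose, and Aldh1a2 and Ripply1 did not pass. Mesp2, which sets the segment boundary, was at 0.214 and 0.514 FPKM at 84 h and 19.9 and 22.2 at 96 h, and its close replicates gave a log2 change of 5.59 ± 0.60 (adjusted p = 7.32e-09). Ripply2, which ends the action of Mesp2 and Tbx6 at the boundary, was at 0.578 FPKM in 1 library of 84 h and listed at 0 in the other, and at 22.9 and 51.1 FPKM at 96 h (adjusted p = 3.56e-08). Meox1, a homeodomain factor of the whole somite, rose from 4.25 and 4.13 FPKM to 86.5 and 186. Foxc2, a forkhead factor of paraxial mesoderm, rose from 2.10 and 2.19 FPKM to 42.3 and 79.1, and Tcf15 (Paraxis), which drives epithelial somite formation, from 1.24 and 2.90 to 29.5 and 76.3. In these 3 genes replicate 2 was the higher of the 96 h libraries, and log2 changes were 4.89 ± 0.35, 4.69 ± 0.33 and 4.57 ± 0.57 (adjusted p of 1.11e-12, 6.71e-13 and 1.39e-07). Pax3, which marks the dorsal somite as well as the dorsal neural tube, was at 0.0514 and 0.0429 FPKM at 84 h, a level of at most 3 fragments per library. At 96 h it was at 6.36 and 16.8 FPKM, at least 89.0-fold higher in replicate 1 and 235-fold in replicate 2 than the level that 3 fragments would give in a library at 84 h. Aldh1a2, which makes retinoic acid in somites, was already at 152 and 152 FPKM at 84 h and reached 330.0 and 841 at 96 h (log2 change 1.79 ± 0.39, adjusted p = 6.59e-04), or 1.12 without replicate 2 (adjusted p = 0.0837).

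**Figure D2:**
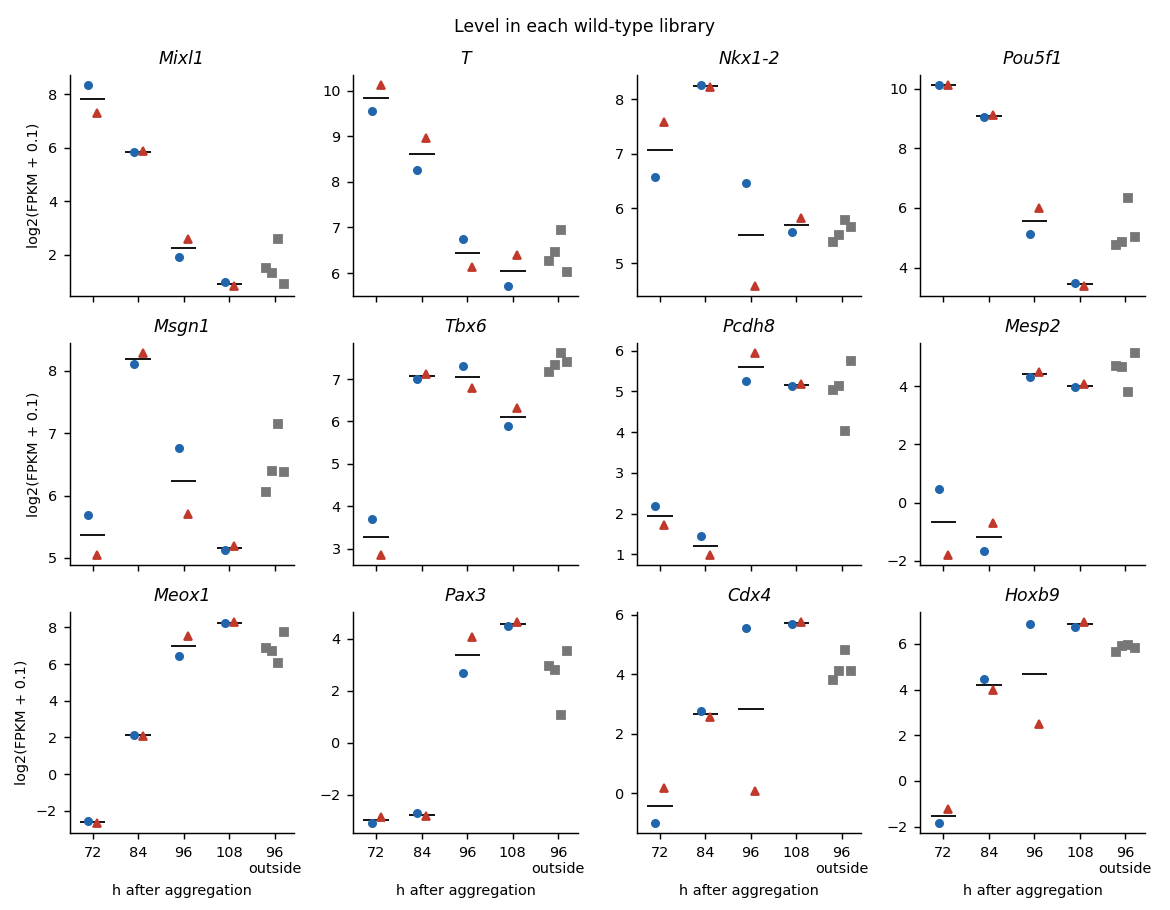
Level of 12 genes in each wild-type library, as log2(FPKM + 0.1) on the vertical axis, at 72 h, 84 h, 96 h and 108 h of the time course (circles for replicate 1, triangles for replicate 2) and in the 4 libraries at 96 h outside the time course (squares). The bars are means of the 2 plotted values of a stage, and each panel has its own scale. Mixl1, T and Pou5f1 were lower at 96 h than at 84 h, Mesp2 and Meox1 were higher at 96 h and 108 h than at 72 h and 84 h, and Cdx4 and Hoxb9 had replicate 2 of 96 h far below replicate 1.

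In the time course, T had been at 758 and 1126 FPKM at 72 h and was at 52.4 and 83.8 at 108 h, and Mixl1 at 329 and 159.6 at 72 h and 1.86 and 1.69 at 108 h. Msgn1 was at 51.3 and 33.0 FPKM at 72 h and at 34.9 and 36.6 at 108 h, hence its 84 h libraries had the highest values of these 4 stages. Nkx1-2 was likewise highest at 84 h, with 95.3 and 191 FPKM at 72 h and 47.5 and 56.3 at 108 h. Mesp2 was at 1.27 and 0.190 FPKM at 72 h and 15.7 and 16.5 at 108 h, and Meox1 at 0.0684 and 0.0545 at 72 h and 299 and 314 at 108 h. The libraries at 72 h and 108 h are separate from those compared, and their values are given without a test.

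Over the 4 mesoderm lists, 33 genes reached 1 FPKM, of which 23 rose and 2 fell with all libraries, and 18 rose and 1 fell without replicate 2 of 96 h. Of the 33 genes, 13 reached 1 FPKM only at 96 h and had to be higher there, so that these counts too are no support by themselves. Lateral and cardiac mesoderm genes contributed 5 rises among 9, of which Gata6, Tbx1 and Bmp4 did not pass without replicate 2, while Gata4 then fell. Without replicate 1 of 96 h 8 rose, and with replicate 1 or replicate 2 of 84 h left out 3 and 2 rose. Foxf1, a forkhead factor of lateral mesoderm, was at 0.402 and 0.277 FPKM at 84 h and 1.99 and 7.86 at 96 h (log2 change 3.23 ± 0.42, adjusted p = 3.21e-07), and Smarcd3, a cardiac chromatin remodelling subunit, at 5.51 and 5.84 at 84 h and 11.3 and 30.7 at 96 h (log2 change 1.70 ± 0.22, adjusted p = 2.60e-07). Both also rose without replicate 2. Tbx1, a T-box factor of pharyngeal mesoderm, was at 0.254 and 0.172 FPKM at 84 h and 0.464 and 4.32 at 96 h. Gata6, a zinc finger factor of endoderm and cardiac mesoderm, was at 0.604 and 0.705 FPKM at 84 h and 0.802 and 11.2 at 96 h, and Gata4 at 1.21 and 1.53 at 84 h and 0.219 and 6.69 at 96 h. Replicate 1 of 96 h was thus close to 84 h for Gata6 and below it for Gata4. Hand1, a bHLH factor of lateral and extraembryonic mesoderm, was at 0.301 and 0.407 FPKM at 84 h and 0.101 and 5.54 at 96 h (adjusted p = 0.354). Tbx5, Tbx20 and Nkx2-5, later cardiac factors, were not among the genes fitted, which needed a mean of 1 FPKM in at least 1 group. The intermediate mesoderm genes Osr1 and Pax2 reached 1 FPKM only at 96 h, so that the direction was fixed by that filter. Osr1 went from 0.103 and 0.0450 FPKM to 1.45 and 3.06 and Pax2 from 0.0649 and 0.0284 to 1.26 and 1.19, with at most 3 fragments per library at 84 h. Wt1, of the same list, was below 1 FPKM at both stages and is outside the counts. It fell from 0.256 and 0.382 FPKM to 0.0395 and 0.148 (log2 change -1.155 ± 0.39, adjusted p = 0.0318 by limma). Leaving out 1 library ended the calls of Tbx1 (largest adjusted p 0.555, without replicate 2 of 96 h) and Gata6 (largest adjusted p 0.994, without replicate 2 of 96 h).

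Markers of other cell types that a stembryo can hold passed about as often as all genes. Of 20 genes of 5 such lists above 1 FPKM, 5 rose and 1 fell (30.0%), against 26.9% of the 12214 genes in either direction, and 3 rose and 1 fell without replicate 2 of 96 h. Genes with a mean below 1 FPKM at both stages are outside these counts. Among them, at an adjusted p below 0.05 by limma, the blood and endothelial genes Runx1 and Fli1 rose, as did Shh, Sox1 and Gata3, and Ascl2 fell. Of 4 endothelial and blood genes above 1 FPKM none passed by limma, with 1 at an unadjusted p below 0.05, and none passed without replicate 2 of 96 h, whereas Kdr rose without replicate 1. Kdr, the VEGF receptor, was at 0.486 and 0.499 FPKM at 84 h and 0.718 and 5.10 at 96 h, and Tal1, Gata1 and Hbb-bh1 were not among the genes fitted. Among 8 endoderm and notochord genes, 1 rose (Cer1), 1 fell (Noto) and 6 did not pass, and the same genes passed without replicate 2 of 96 h. Cer1 reached a mean of 1 FPKM only at 96 h and Noto only at 84 h, so that the direction of both was fixed by that filter. Cer1, a secreted antagonist of Nodal and BMP that is made by anterior endoderm and also by nascent somites, was at 0.666 and 1.24 FPKM at 84 h and 66.1 and 187 at 96 h. The stages did not overlap (log2 change 6.78 ± 1.07, adjusted p = 9.98e-06). The endoderm factors Sox17 (1.77 and 1.91 at 84 h and 1.99 and 9.94 at 96 h) and Foxa2 (3.55 and 3.84 at 84 h and 1.39 and 5.03 at 96 h) did not pass, and were highest in replicate 2 of 96 h. Noto, a homeobox gene of the node and notochord, fell from 4.91 and 4.51 FPKM to 0.214 and 0.807 (log2 change -3.17 ± 0.69, adjusted p = 7.28e-04). Of 4 neural genes above 1 FPKM, of which Irx3 and Irx5 reached it only at 96 h, 3 rose, and only Hes5 without replicate 2 of 96 h. These were Hes5, a Notch effector of neural progenitors (2.03 and 1.12 FPKM at 84 h and 23.2 and 2.10 at 96 h), and the Iroquois genes Irx3 (0.794 and 0.725 at 84 h and 2.13 and 5.45 at 96 h) and Irx5 (0.312 and 0.328 at 84 h and 0.558 and 3.46 at 96 h), while the neural markers Pax6, Sox1 and Olig2 were below 1 FPKM at both stages. Hes5 was high in replicate 1 only and the Iroquois genes mostly in replicate 2. Of 2 crest and surface ectoderm genes 1 rose (Msx1, 5.84 and 4.32 FPKM at 84 h and 25.2 and 8.27 at 96 h), and of 2 extraembryonic genes above 1 FPKM, Dab2 and Rhox5, none passed, also at an unadjusted p below 0.05. Msx1 again rose without replicate 2 of 96 h, and neither extraembryonic gene passed. Calls lost when 1 library was left out were those of Hes5 (largest adjusted p 0.464, without replicate 1 of 96 h), Irx3 (largest adjusted p 0.101, without replicate 2 of 96 h), Irx5 (largest adjusted p 0.634, without replicate 2 of 96 h) and Msx1 (largest adjusted p 0.284, without replicate 1 of 96 h).

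Several pluripotency genes fell. Of 12 epiblast genes above 1 FPKM, 5 fell, 1 rose and 6 did not pass. Without replicate 2 of 96 h 6 fell and 0 rose, and 3 or 4 fell with any 1 of the other 3 libraries left out. Pou5f1 (Oct4), the core pluripotency factor, stood at 532 and 552 FPKM at 84 h and 34.7 and 63.3 at 96 h (log2 change -3.53 ± 0.62, adjusted p = 4.51e-05). This was the second largest fall in mean FPKM among protein-coding nuclear genes past the threshold. L1td1, an RNA-binding protein of pluripotent cells, fell from 17.1 and 25.2 FPKM to 2.07 and 4.81, and Fgf5, the classic epiblast ligand, from 3.84 and 3.65 to 0.170 and 1.96. The stages did not overlap in any of the 3 genes. Dnmt3b, a de novo DNA methyltransferase, and Lin28a, which blocks let-7, fell by less, from 91.5 and 94.9 FPKM to 55.0 and 63.7 and from 383 and 328 to 260.2 and 168, but with a small spread (log2 changes -0.65 ± 0.08 and -0.76 ± 0.13). Zic2, a zinc finger factor, rose from 21.3 and 20.8 FPKM to 28.6 and 45.6 (adjusted p = 0.0405). Of 9 naive pluripotency genes, 3 fell (Klf5, Tfcp2l1 and Fgf4) and 1 rose, of which Klf5 alone passed without replicate 2 of 96 h. The adjusted p was then 0.354 for Tfcp2l1 and 0.496 for Fgf4, and with replicate 1 or replicate 2 of 84 h left out 1 and 2 genes fell. Klf5 fell from 19.4 and 19.7 FPKM to 2.83 and 2.19 (log2 change -2.92 ± 0.38, adjusted p = 4.18e-07), whereas Nanog, at 9.87 and 16.1 FPKM at 84 h and 2.77 and 4.78 at 96 h, did not pass (adjusted p = 0.0997). Klf4, which is also an early response gene, rose from 1.38 and 1.05 FPKM to 1.83 and 4.89, highest in replicate 2. Among 5 germ cell genes, 3 fell, namely Tfap2c (4.58 and 5.43 FPKM at 84 h and 1.05 and 1.17 at 96 h), Ifitm3 and Kit. Of these Kit did not pass without replicate 2 of 96 h, and with replicate 1 or replicate 2 of 84 h left out 1 and 2 fell. The threshold was missed with 1 library left out for L1td1 (largest adjusted p 0.136, without replicate 1 of 96 h), Fgf5 (largest adjusted p 0.567, without replicate 1 of 96 h), Zic2 (largest adjusted p 0.476, without replicate 2 of 96 h) and Klf4 (largest adjusted p 0.168, without replicate 2 of 96 h).

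Several epithelial genes fell and several mesenchymal genes rose. Of 14 epithelial genes 7 fell, none rose and 7 did not pass, with a median log2 change of -1.46. With replicate 2 of 96 h left out, 6 fell. Cdh1 (E-cadherin) was at 124 and 137 FPKM at 84 h and 21.4 and 42.4 at 96 h, and Epcam, another epithelial adhesion molecule, at 74.1 and 79.8 at 84 h and 18.6 and 27.5 at 96 h. Cldn4, a tight junction claudin, fell from 19.6 and 21.8 FPKM to 5.54 and 3.68, and Esrp1, the epithelial splicing regulator, from 23.0 and 23.7 to 8.05 and 5.26. In these 4 genes both 96 h libraries were below both 84 h libraries, although Cldn4 and Esrp1 did not pass without replicate 2, with log2 changes of -2.11 ± 0.44, -1.76 ± 0.42, -2.17 ± 0.67 and -1.83 ± 0.47 (adjusted p of 4.33e-04, 0.00178, 0.0172 and 0.00370). Krt18, a simple epithelial keratin, was at 11.4 and 15.5 FPKM at 84 h and 5.36 and 29.5 at 96 h, with 84 h between the 96 h libraries. Of 11 mesenchymal genes, 6 rose, 1 fell and 4 did not pass, and without replicate 2 only Zeb1 and Twist1 rose. Without replicate 1 of 96 h 9 rose, and with either 84 h library left out 3 rose. Zeb1, a repressor of epithelial genes, rose from 3.37 and 3.27 FPKM to 10.7 and 10.6 with close replicates (log2 change 1.65 ± 0.14, adjusted p = 3.91e-11), and Twist1, a mesenchymal bHLH factor, from 4.08 and 3.98 to 11.4 and 33.3 (log2 change 2.25 ± 0.42). Prrx1, a homeobox gene of mesenchyme, rose from 0.306 and 0.250 FPKM to 0.424 and 3.67, higher in replicate 2. Vim (vimentin), an intermediate filament of mesenchymal cells, fell from 146 and 133 FPKM to 56.8 and 86.6 (log2 change -0.99 ± 0.15, adjusted p = 4.73e-06). Cdh2 (N-cadherin) was at 68.5 and 74.8 FPKM at 84 h and 72.2 and 80.5 at 96 h and did not pass. Among 13 extracellular matrix genes 7 rose and 3 fell, and without replicate 2 of 96 h 5 rose and 3 fell. Fbn2, a microfibril protein, rose from 1.61 and 1.40 FPKM to 11.5 and 14.8 (log2 change 3.04 ± 0.31), and the basement membrane collagen Col4a1 from 21.1 and 21.2 to 37.9 and 58.5, whereas the fibrillar collagen Col1a2 fell from 8.63 and 7.47 to 1.10 and 1.06 (log2 change -2.78 ± 0.32, adjusted p = 2.72e-08). Some changes did not pass with 1 library left out, namely those of Cldn4 (largest adjusted p 0.137, without replicate 2 of 96 h), Esrp1 (largest adjusted p 0.0714, without replicate 2 of 96 h) and Prrx1 (largest adjusted p 0.811, without replicate 2 of 96 h).

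Among signalling genes, most Wnt ligands fell with all libraries. Of 12 ligands above 1 FPKM, 8 fell and 2 rose with all libraries, and 3 fell (Wnt3, Wnt8a and Wnt2b) and 2 rose without replicate 2 of 96 h. Wnt2b fell from 3.51 and 3.48 FPKM to 0.153 and 1.91 (log2 change -2.33 ± 0.53, adjusted p = 0.00111). Wnt16 rose from 0.0955 and 0.0555 FPKM to 2.30 and 2.04, and Wnt8b from 0.696 and 0.946 to 1.90 and 2.59. These 2 reached 1 FPKM only at 96 h, and 2 other ligands, Wnt3 among them, only at 84 h. Their direction was fixed by that filter. Wnt5a, a ligand of the noncanonical branch, was at 22.8 and 20.9 FPKM at 84 h and 29.9 and 26.5 at 96 h and did not pass (adjusted p = 0.0903). Targets and feedback genes of the pathway were divided, with 4 rises and 3 falls among 13, and 2 rises (Nkd1 and Apcdd1) and 1 fall (Tcf7) without replicate 2 of 96 h. Without replicate 1 of 84 h they were 2 and 1 as well, and without replicate 2 of 84 h 4 and 1. Axin2, the most widely used readout of canonical Wnt, was at 61.8 and 61.5 FPKM at 84 h and 61.4 and 48.7 at 96 h (log2 change -0.17 ± 0.13, adjusted p = 0.440). Lgr5, the R-spondin receptor, rose from 0.167 and 0.234 FPKM to 0.601 and 1.41 (log2 change 1.79 ± 0.42, adjusted p = 0.00181). Of the nuclear effectors, Lef1 rose from 94.2 and 102.4 FPKM to 129 and 160.0 and Tcf7 fell from 69.0 and 78.5 to 49.4 and 48.1. Among 13 Nodal pathway genes, Smad3 and Acvr2b rose, Acvr1b fell and 10 did not pass, and without replicate 2 of 96 h Acvr2b rose and Foxh1 fell. Leaving out 1 library ended the calls of Wnt2b (largest adjusted p 0.258, without replicate 1 of 96 h), Lgr5 (largest adjusted p 0.0986, without replicate 2 of 96 h) and Lef1 (largest adjusted p 0.213, without replicate 2 of 96 h).

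Among 20 FGF ligands, receptors and feedback genes, 8 fell, 3 rose and 9 did not pass, and without replicate 2 of 96 h 3 fell (Spry2, Spred1 and Fgf5) and 2 rose. Without replicate 1 of 96 h 12 fell and 5 rose, and without replicate 1 of 84 h 5 fell and 3 rose. Spry4, a feedback inhibitor induced by ERK signalling, fell from 31.5 and 25.6 FPKM to 17.2 and 6.13 (log2 change -1.46 ± 0.28, adjusted p = 1.58e-04), and Spred1, another such inhibitor, from 47.5 and 39.5 to 25.5 and 22.4 (log2 change -0.86 ± 0.12, adjusted p = 2.09e-06). Fgf8, the posterior FGF ligand, was at 105 and 90.1 FPKM at 84 h and 103 and 32.4 at 96 h, with replicate 1 of 96 h within the range of 84 h (adjusted p = 0.141). Fgf18 rose from 0.0581 and 0.402 FPKM to 11 and 8.35, and the receptor gene Fgfr2 from 1.11 and 1.04 to 5.89 and 21.4. Both rises held without overlap (log2 changes 5.10 ± 0.55 and 3.27 ± 0.56, adjusted p of 6.86e-09 and 3.25e-05). Among the genes whose levels are given here, the call of Spry4 was lost when 1 library was left out (log2 change -0.72 without replicate 2 of 96 h).

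Notch pathway genes rose in the largest share of the signalling lists, 9 of 14 against 1 fall, and the same 9 rose without replicate 2 of 96 h. Without replicate 1 of 96 h 7 rose and 2 fell, as Hes5 (log2 change 0.44, adjusted p = 0.464) and Nrarp (adjusted p = 0.0761) did not pass. Besides Dll1, Lfng and Nrarp, the effector Hey1 rose from 5.02 and 5.44 FPKM to 14.0 and 15.1 (log2 change 1.46 ± 0.19, adjusted p = 3.61e-07) and Hey2 from 0.638 and 0.7502 to 1.96 and 3.88. The receptor Notch1 rose from 34.4 and 29.9 FPKM to 61.5 and 63.7 (log2 change 0.96 ± 0.18) and the ligand Jag1 from 5.25 and 4.39 to 11.1 and 14.3 (log2 change 1.37 ± 0.15, adjusted p = 6.99e-09). Replicates of 96 h were close in Hey1 and Notch1. Jag2 was the gene that fell, from 2.87 and 2.52 FPKM to 1.39 and 0.673. The threshold was missed with 1 library left out for Jag2 (largest adjusted p 0.213, without replicate 2 of 96 h).

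Of 12 BMP pathway genes, 5 rose and 1 fell, and 3 rose and 2 fell without replicate 2 of 96 h. With any 1 of the other 3 libraries left out, 2 or 3 rose and 1 fell. Fst (follistatin), a secreted inhibitor of activin and BMP, fell from 238 and 239.5 FPKM to 15.6 and 42.6, the largest change of the list (log2 change -3.20 ± 0.32, adjusted p = 1.94e-09). The targets Id2 and Id1 rose, Id2 from 3.12 and 3.01 FPKM to 13.3 and 17.5 and Id1 from 19.7 and 18.8 to 34.4 and 29.2. Among 10 genes of retinoic acid metabolism and response, 4 rose and 1 fell, and without replicate 2 of 96 h 4 rose (Cyp26a1 in place of Aldh1a2) and 0 fell. Crabp1, a cellular retinoic acid binding protein, went from 95.9 and 99.97 FPKM to 507 and 803 (log2 change 2.703 ± 0.21, adjusted p = 8.76e-12), Stra6, the retinol transporter, from 8.04 and 6.53 to 27.2 and 31.8, and Dhrs3, a retinaldehyde reductase, from 2.77 and 2.83 to 7.05 and 5.98. All 3 rises were without overlap. Cyp26a1, the enzyme that degrades retinoic acid in the posterior body, was at 10.1 and 9.39 FPKM at 84 h and 28.5 and 11.9 at 96 h (adjusted p = 0.0946). Some changes did not pass with 1 library left out, namely those of Id1 (largest adjusted p 0.187, without replicate 1 of 96 h).

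**Figure D3:**
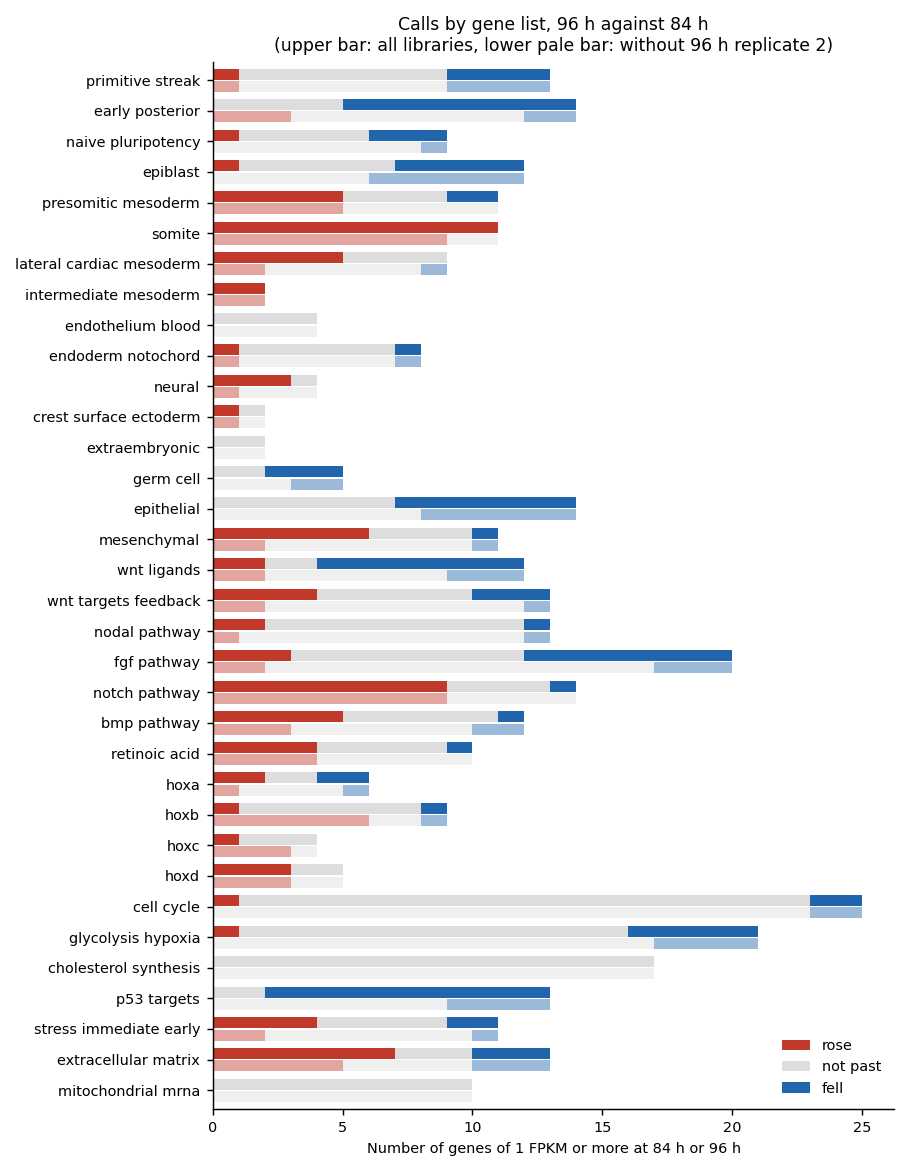
Number of genes of each list that rose (red), fell (blue) or did not pass (grey) from 84 h to 96 h, among genes with a mean of at least 1 FPKM at either stage (horizontal axis, number of genes). Dark bars use all 61 libraries and pale bars leave out replicate 2 of 96 h. Early posterior genes went from 9 falls to 2 and Notch pathway genes had 9 rises in both.

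Of 24 Hox genes above 1 FPKM, 7 rose and 3 fell with all libraries, and 13 rose and 2 fell without replicate 2 of 96 h. Of the 24 genes, 5 reached 1 FPKM only at 96 h and had to be higher there. Anterior Hoxd genes rose without overlap, Hoxd1 from 1.40 and 1.57 FPKM to 10.01 and 9.64, Hoxd3 from 3.22 and 3.03 to 22.9 and 19.7 and Hoxd4 from 3.45 and 2.47 to 23.2 and 14.7 (log2 changes 2.65 ± 0.27, 2.73 ± 0.23 and 2.62 ± 0.23). Hoxb1, the most anterior gene of its cluster, fell from 218 and 265 FPKM to 107 and 119 without overlap (log2 change -1.09 ± 0.19, adjusted p = 4.91e-05). Central genes depended on the library, and without replicate 1 of 96 h 6 Hoxb genes and 2 Hoxc genes fell. Hoxb9 was at 21.8 and 15.5 FPKM at 84 h and 115 and 5.53 at 96 h, and Hoxc8 at 0.783 and 0.391 at 84 h and 25.2 and 0.572 at 96 h. In the libraries outside the time course Hoxb9 was at 49.7, 60.5, 61.9 and 57.1 FPKM and Hoxc8 at 9.21, 11.3, 15.3 and 9.87. Neighbouring Hox genes with overlapping transcripts, such as Hoxd3 and Hoxd4, can share fragments, so that their separate levels are uncertain. Hoxa4 was listed at 0 in 3 of the 4 libraries and at 4.91 FPKM in replicate 2 of 96 h, and Hoxa7 at 25.5 FPKM in replicate 1 alone. Hoxa4 counts among the rises through that 1 value, and Hoxc8 through replicate 1 alone. Leaving out 1 library ended the calls of Hoxc8 (largest adjusted p 1.00, without replicate 1 of 96 h).

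Target genes of p53 fell in the largest share of the lists of cell processes, 11 of 13 with none rising, against 16.6% of all genes. Cdkn1a (p21), the cell cycle inhibitor, stood at 139 and 129 FPKM at 84 h and 42.9 and 28.8 at 96 h (log2 change -1.93 ± 0.20, adjusted p = 5.44e-09). Perp, a membrane protein induced by p53 and found in epithelial junctions, was at 9.25 and 10.4 FPKM at 84 h and 1.62 and 2.41 at 96 h (log2 change -2.25 ± 0.78, adjusted p = 0.0359). Trp53inp1, a stress-induced cofactor of p53, fell from 31.8 and 27.1 FPKM to 11.9 and 12.3 (log2 change -1.27 ± 0.21) and Ccng1, cyclin G1, from 152 and 142 to 93.6 and 67.5 (log2 change -0.89 ± 0.17). The stages did not overlap in any of them. Mdm2, the p53 ubiquitin ligase, was at 22.9 and 21.1 FPKM at 84 h and 19.3 and 19.6 at 96 h and did not pass (adjusted p = 0.497). Of the 13 genes 4 fell without replicate 2 of 96 h, namely Cdkn1a, Trp53inp1, Ccng1 and Eda2r. With replicate 1 or replicate 2 of 84 h left out 6 and 7 fell, and without replicate 1 of 96 h 9 fell. Of 25 cell cycle genes, by contrast, 1 rose, 2 fell and 22 did not pass, with 0 rises and 2 falls without replicate 2 of 96 h, among them Pcna at 220.1 and 218 FPKM at 84 h and 209 and 194 at 96 h and Cdk1 at 198 and 195 at 84 h and 196 and 209.7 at 96 h. Among 21 glycolytic and hypoxia-responsive genes 5 fell and 1 rose, 4 fell and 0 rose without replicate 2 of 96 h, and most glycolytic enzymes did not pass. Adm (adrenomedullin) fell from 3.47 and 4.82 FPKM to 0.467 and 0.947, Ndrg1 from 5.45 and 7.12 to 1.02 and 1.87 and Egln3, an oxygen sensor, from 19.0 and 19.9 to 4.58 and 8.47 (log2 changes -2.44 ± 0.44, -2.09 ± 0.30 and -1.63 ± 0.20). Vegfa rose from 9.13 and 9.54 FPKM to 15.1 and 27.6. Both 96 h libraries were above both 84 h libraries in 10 of 17 cholesterol synthesis genes, 8 of 10 mitochondrial mRNAs and 2928 of the 12214 genes. Neither list had a gene with both below. The spread of the mitochondrial mRNAs in the fit includes the 4 libraries outside the time course, which differed widely in mt-Co2. Hence a lack of calls for these mRNAs says little. None of 17 cholesterol synthesis genes and none of 10 mitochondrial mRNAs passed by limma, with 4 and 0 at an unadjusted p below 0.05, and none passed without replicate 2 of 96 h. Among the genes whose levels are given here, the calls of Perp and Vegfa were lost when 1 library was left out. The log2 change of Perp was -1.98 without replicate 1 of 96 h, and that of Vegfa 0.68 without replicate 2 of 96 h.

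Among 11 stress and immediate early genes 4 rose, 2 fell and 5 did not pass. The rises were Fosb, Fos, Egr1 and Jun, immediate early genes, which respond within minutes to growth factors and to handling. The immediate early genes Junb and Ier2 did not pass, and the falls were Atf3 and Dnajb1. With replicate 2 of 96 h left out, Fosb and Egr1 rose and Dnajb1 fell. Fos was at 2.45 and 3.15 FPKM at 84 h and 6.47 and 53.6 at 96 h, Egr1 at 2.22 and 1.91 at 84 h and 10.6 and 48.4 at 96 h, and Jun at 1.37 and 1.38 at 84 h and 2.92 and 14.3 at 96 h. Replicate 2 of 96 h was the highest library in each. Outside the time course at 96 h Fos was at 0.747, 0.775, 1.15 and 0.754 FPKM and Egr1 at 2.95, 2.48, 3.81 and 4.83. The heat shock gene Dnajb1 fell slightly, from 26.3 and 25.1 FPKM to 20.7 and 22.0. The threshold was missed with 1 library left out for Fos (largest adjusted p 0.513, without replicate 2 of 96 h), Jun (largest adjusted p 0.0949, without replicate 2 of 96 h) and Dnajb1 (largest adjusted p 0.148, without replicate 1 of 84 h).

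The 15 largest rises and 15 largest falls on the log2 scale were partly genes listed at 0. They were taken among genes past the threshold, of 5 FPKM or more at the higher stage and with no overlap between libraries, leaving out predicted genes, clones and pseudogenes. Both 84 h libraries were listed at 0 in 6 of the rises (Snora64, Hoxb5os, Lime1, St3gal4, Fam171a2 and Tirap) and both 96 h libraries in 9 of the falls (Tapbp, Galk2, Slc7a7, Mindy1, Wsb2, Ncoa3, Pltp, Cbarp and Mtmr11). Tapbp, which loads peptides on MHC class I, was at 20.5 and 22.7 FPKM at 84 h and listed at 0 in both 96 h libraries. Cufflinks gave a status other than OK for 7 genes in the 8 wild-type libraries at 84 h and 96 h. Whether a value of 0 beside several FPKM in the next stage was a failed estimate was not tested. Over the 12214 genes, 89 were listed at 0 in both 84 h libraries and 97 in both 96 h libraries. The same ranking without genes listed at 0, chosen after the values were seen, was led by Cer1, Pax3, Dmrt2, Mesp2 and Nr2f2 among the rises. Dmrt2, a factor of the dermomyotome, rose from 0.132 and 0.172 FPKM to 10.3 and 22.4 (log2 change 5.93 ± 0.60), and Prrx2, a homeobox gene of mesenchyme, from 2.54 and 3.08 to 34.8 and 134. Pcsk5, a proprotein convertase, rose from 0.483 and 0.379 FPKM to 9.12 and 17.4 (log2 change 4.59 ± 0.32, adjusted p = 4.55e-13). The falls included Epp13, Trim67, Sprr2a3 and Ccno. Trim67, a tripartite motif protein, fell from 7.84 and 9.94 FPKM to 0.159 and 0.280 (log2 change -4.83 ± 0.35, adjusted p = 1.11e-12), and Sprr2a3, a small proline-rich protein of cornified epithelia, from 162 and 167 to 7.85 and 6.43 (log2 change -4.51 ± 0.59). Sprr2a3 belongs to a family of near-identical copies, so that its level is uncertain. Tdrd5, a Tudor domain protein of the germ line, fell from 16.3 and 15.8 FPKM to 1.14 and 0.775, and Pim2, a survival kinase, from 94.9 and 104 to 5.05 and 12.2.

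In absolute terms, among protein-coding nuclear genes past the threshold, the 5 with the largest rise in mean FPKM were Tmsb10, Crabp1, Mdk, Ifitm1 and Aldh1a2. Tmsb10, an actin-binding thymosin, went from 611 and 943 FPKM to 1269 and 1589, and Ifitm1, an interferon-induced membrane protein found in paraxial mesoderm, from 555 and 539 to 879 and 1262. The 5 largest falls were Ftl1, Pou5f1, Grsf1, Prdx1 and Slc25a5. Ftl1, the ferritin light chain, went from 1681 and 2099 FPKM to 1037 and 1285, and Slc25a5, the mitochondrial ADP/ATP carrier, from 679 and 634 to 349 and 299. Grsf1, an RNA-binding protein of mitochondrial RNA granules, fell from 757 and 664 FPKM to 337 and 112 (log2 change -1.87 ± 0.24, adjusted p = 2.41e-07), lower in replicate 2. Some changes did not pass with 1 library left out, namely those of Tmsb10 (largest adjusted p 0.0535, without replicate 1 of 84 h).

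**Figure D4:**
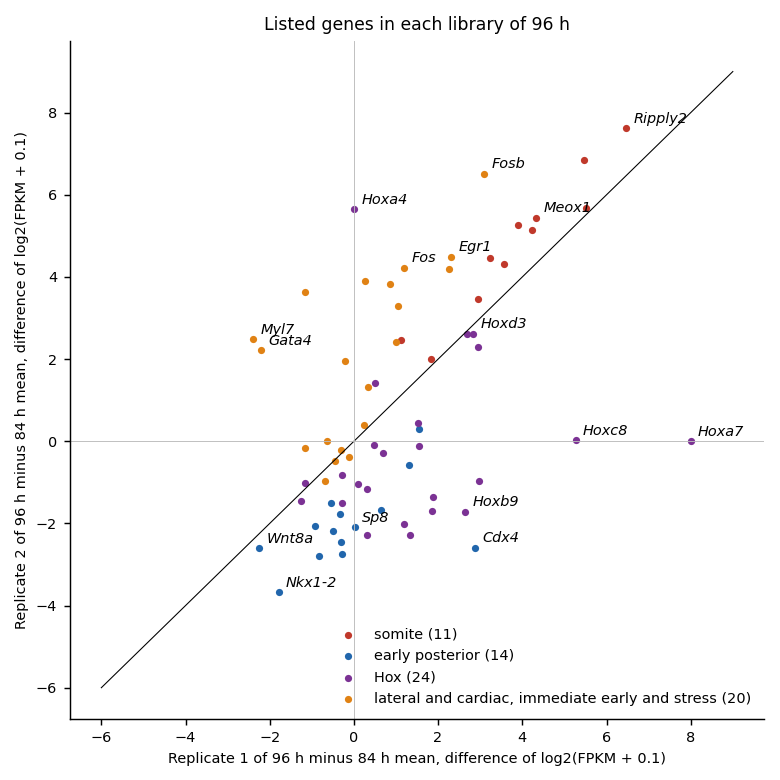
Change from the 84 h mean to replicate 1 (horizontal axis) and to replicate 2 (vertical axis) of 96 h, as a difference of log2(FPKM + 0.1). The genes are those of the somite, early posterior, Hox, lateral and cardiac mesoderm, and stress and immediate early lists that reached 1 FPKM at either stage. The other lists are not plotted. Points on the diagonal moved alike in both libraries. Somite genes (red) are above 0 in both libraries, Hoxc8, Hoxb9 and Cdx4 lie to the right of the diagonal, and Fos, Egr1, Myl7 and Gata4 lie above it.

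Whether the 96 h levels held in wild-type libraries that the comparison does not use was examined with the 4 libraries outside the time course. By the same fit, 2846 of the 17098 genes (16.6%) were higher and 2683 (15.7%) lower outside than in the time course at 96 h. Replicates 1 to 3 outside differed from replicate 4 and from the time course in other features. The mitochondrial mRNA mt-Co2 was at 1269, 1227, 1088 and 1.42 FPKM in replicates 1 to 4 and at 1.36 and 0.902 in the time course at 96 h. They also had 13364 to 13674 genes at 1 FPKM or more, against 11459 in replicate 4 and 11440 and 11483 in the time course. In these 3 libraries this difference and the group cannot be told apart. With replicate 4 alone as the outside library, an alternative chosen after the data were seen, 524 genes (3.06%) were higher and 670 (3.92%) lower. Meox1 was at 116, 105, 67.5 and 216 FPKM outside the time course, Mesp2 at 25.8, 25.2, 13.7 and 34.9 and Pcdh8 at 32.6, 35.2, 16.3 and 53.8, and Cer1 at 66.7, 63.8, 9.85 and 109. All 16 of these values were above both 84 h libraries, with replicate 3 the lowest in each gene. Not every rise held there. Bmp4, at 1.755 and 1.728 FPKM at 84 h, was at 1.21, 1.22, 1.32 and 0.749 outside, below both 84 h libraries. Tbx1, at 0.254 and 0.172 at 84 h, was at 0.333, 0.288, 0.109 and 0.162 outside, which overlapped. Pou5f1 was at 27.2, 28.7, 80.9 and 32.2 FPKM outside, Cdh1 at 16.9, 15.1, 16.8 and 17.1 and Fst at 16.5, 14.7, 23.7 and 26.8, below both 84 h libraries in every case.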

How the data were processed

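Stranded poly-A RNA-seq libraries of pooled stembryos were analysed from the FPKM values the authors deposited, computed with Cufflinks 2.2.1 from reads trimmed with cutadapt 1.16 and mapped with STAR 2.7.7a to mm10, keeping uniquely mapped reads. FPKM of each library are relative to its own mapped fragments, and reads of repeated or near-identical genes are lost. Values were taken as log2(FPKM + 0.1), so that changes of low genes are understated, and fitted with limma 3.58.1 (R 4.3.3) in all 61 libraries with 1 coefficient for each of 28 groups, for the 17098 genes with a mean of 1 FPKM or more in at least 1 group. P-values were adjusted over these genes by Benjamini-Hochberg, with a threshold of 0.05. The fit was tested on simulated data. Libraries were grouped by the genotype, age and time-course labels. Depth was inferred from the confidence bounds of genes with few fragments, and floors (3 fragments) cover counting error only. The members, gene lists and promoters were chosen with earlier results of these data known. Named genes were those of the lists, preferring the largest changes past the threshold, the 15 largest rises and falls in log2 among genes of 5 FPKM or more without overlap, and the 5 largest in mean FPKM. Promoter sequences came from RefSeq (GRCm38.p6). Alternatives covered the pseudocount, filter, scaling, libraries in the fit, variance trend, replicate block and each left-out library. Some genes that the rule would name are not reported here.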

Additional observations from a re-analysis of the deposited data

Results flagged for a closer look

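In the 4 wild-type libraries at 96 h outside the time course, the levels of 19 genes were examined for a library set apart from the other 3, relative to the range. Of these genes 4 had one. Chance gives about 1 in 20 for a single gene, but the genes were measured in the same libraries and are not independent. The count is therefore not a test. For Fos the gap of replicate 3 to its nearest neighbour took a share of 0.929 of the range, for Pou5f1 replicate 3 had 0.906, for Cdh1 replicate 2 had 0.862, and for mt-Co2 replicate 4 had 0.857. The share does not give the size of the gap, and Cdh1 ran only from 15.1 to 17.1 FPKM. The cause was not tested.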

How the results depend on the processing

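Of 140 named genes, 113 passed the threshold, of which 68 passed under every alternative that fitted them except the fit of the 2 groups alone, 98 were lost in that fit and 30 without replicate 2 of 96 h. With only the 2 groups in the fit, 145 genes rose and 298 fell, 18 were higher and 6 lower outside the time course, and of the listed genes 2 mesoderm genes rose and 0 streak and early posterior genes fell by limma (13 with all libraries). That fit leaves few residual degrees of freedom. Upper-quartile scaling gave 1184 falls, and 608 genes lower outside, and median-ratio scaling 1642 lower outside. With only wild-type libraries in the fit, 403 genes were higher and 668 lower outside, and with only replicate 4 outside 524 and 670. With only time-course libraries, 8 streak and early posterior genes fell. Leaving out 1 library at a time gave 935 to 1337 rises, 1463 to 2042 falls, 1730 to 3234 genes higher and 1390 to 3763 lower outside, 18 to 25 mesoderm rises and 6 to 15 streak and early posterior falls. The lowest of the latter, and the 1730 and 1390, were without replicate 2 of 96 h in the time course. Leaving out 1 library at a time turned the sign of, or took to 0, the log2 change of 16 genes. The change ran from -0.003 to 0.096 for Cdk1, from -2.60 to 2.88 for Cdx4, from -3.17 to 1.88 for Eomes, from -1.58 to 0.078 for Fgf8, from -1.35 to 0.44 for Foxa2, from -2.20 to 2.21 for Gata4, from -1.16 to 3.65 for Hand1 and from -0.92 to 0.68 for Hes7. It ran from 0 to 5.65 for Hoxa4, from 0 to 7.999 for Hoxa7, from -1.72 to 2.64 for Hoxb9, from -1.29 to 1.14 for Krt18, from -2.39 to 2.48 for Myl7, from -0.14 to 0.15 for Rspo3, from -2.09 to 0.024 for Sp8 and from -0.28 to 0.25 for Tbx6. A pseudocount of 1 gave 0.034 for Eomes, a pseudocount of 0.01 gave -0.15 for Gata4 and -0.027 for Myl7, and for Tbx6 upper-quartile scaling gave 0.05 and median-ratio scaling 0.027. Of these genes Sp8 and Hoxa4 had passed the threshold with all libraries. The cause was not tested. With the replicate number as a block, 1419 genes rose and 2176 fell, and no named call was lost. The deviations of libraries with the same number correlated at 0.091 between 84 h and 96 h, and at -0.12 to 0.221 between other stages, so that the numbers were not taken to pair the libraries.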
